A study of Mus musculus with 4 samples.

Results

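Interstitial macrophages are the resident macrophages of the lung tissue itself, found around vessels, airways and nerves, whereas alveolar macrophages lie in the airspaces and clear surfactant. They are known for taking up debris, for making complement C1q and chemokines, and for presenting antigen on MHC class II. Mouse lung is usually described as holding a perivascular kind that carries the folate receptor gene Folr2 and the hyaluronan receptor gene Lyve1, and a kind rich in MHC class II. The 4 single-cell RNA libraries described here came from lungs of male C57BL/6 mice aged 19 months when treatment began. For 1 month the animals were given BPTES, a small-molecule inhibitor of glutamine metabolism, or DMSO, the vehicle. Each group had 2 libraries. Each library was loaded with 20000 CD45-negative and 9000 CD45-positive sorted cells, so the ratio of CD45-positive to other cells was set by the sort and does not describe the lung. The labels do not say whether the libraries of a group came from separate animals, so each p-value measures only the spread between these libraries.

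Members were barcodes with at least 1 UMI of Ptprc (the gene of CD45), at least 5 UMIs summed over C1qa (ENSMUSG00000036887), C1qb and C1qc, and a UMI of Folr2, Ms4a7 or Pf4. Barcodes with UMIs of at least 3 of 7 alveolar macrophage genes, or with over 1 UMI of Cd79a or Cd3e, were left out. This gave 602 members of 68675 barcodes that passed the quality filter, and of 25254 such barcodes with a Ptprc UMI. BPTES replicates 1 and 2 held 173 and 222 members, and DMSO replicates 1 and 2 held 77 and 130. The C1q limit fell in a thinly filled range: with the rest of the rule met, 14 barcodes had 3 or 4 C1q UMIs and 10 had 5 to 7, against 725 with 0 and 547 with 20 or more. Of 954 barcodes with at least 5 C1q UMIs, 171 were left out for lack of Folr2, Ms4a7 and Pf4, 155 for a lymphoid gene, 18 for lack of Ptprc and 8 for alveolar genes.

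The libraries held between 260346570 and 342107092 UMIs and between 15349 and 20549 barcodes that passed the filter. Median depth per member was 28474 and 30777.5 UMIs in the BPTES libraries but 23294 and 21708 in the DMSO libraries, so the treated members held more UMIs. Classical monocytes went the other way, at 26802.5 and 26242 against 30434 and 29206. Between 65 and 104 barcodes were shared by each pair of libraries, at most 0.642% of the smaller one. No doublet caller was run here, and the lymphoid and alveolar limits of the rule stand in for one. UMIs of other lineages were few but not absent in members: no marker list had a gene at 0 in every member.

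The label was checked against genes that the rule did not use. Levels are given as CPM, the UMIs of a gene scaled to a common library total. Adgre1, the gene of F4/80, had a median of 366 CPM over the 4 libraries in members, against 124 in alveolar macrophages and 145 in classical monocytes. Csf1r, the receptor that macrophages need to survive, stood at 684 CPM in members and 134 in alveolar macrophages, and belongs to the gate of classical monocytes, with which it was not compared. Mrc1, the mannose receptor, and Mertk, a receptor for dying cells, were highest in alveolar macrophages, with medians of 1398 and 1171 CPM against 541 and 169 CPM in members. Alveolar genes outside the rule were low in members: Atp6v0d2 had a median of 15.4 CPM against 663 in alveolar macrophages, and Car4 6.70 against 162. Non-classical monocyte genes, on which the rule sets no limit, were present: Ace had a median of 64.3 CPM in members and 109 in classical monocytes, and Treml4 36.7 and 59.7. Members with at least 2 UMIs of Ace or Treml4 were 30.6% and 30.2% in BPTES 1 and 2 and 16.9% and 27.7% in DMSO 1 and 2. Members with over 0.2% of their UMIs from the list of 10 non-classical monocyte genes numbered 29, 27, 1 and 19 in the same order. Non-classical monocytes were not separated from the members here. These values describe how the members were gated and carry no test.

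**Figure D1:**
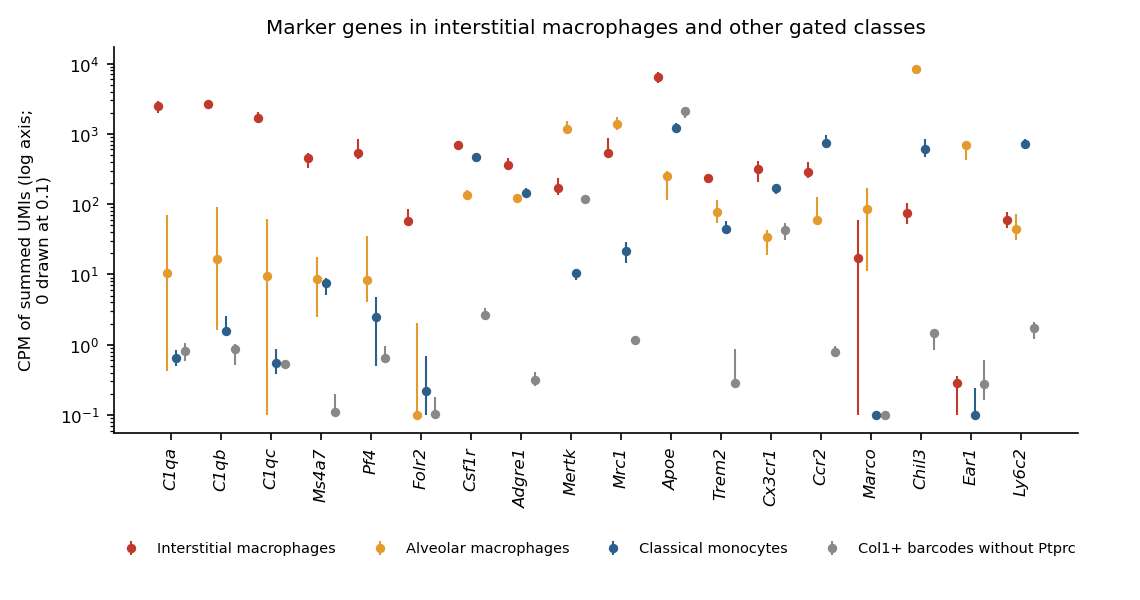
Level (CPM of summed UMIs, log axis) of 18 genes in interstitial macrophages, alveolar macrophages, classical monocytes and barcodes with collagen I but no Ptprc UMIs. Points are medians of 4 libraries and bars reach from the lowest to the highest library; the 6 genes at the left and Marco, Chil3 and Ear1 belong to the rule, Csf1r, Ccr2 and Ly6c2 to the monocyte gate, and values of 0 are drawn at 0.1.

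Among genes with a mean of at least 100 CPM in members, several secreted products stood furthest above the other Ptprc-positive barcodes. Ccl12 and Ccl8, chemokines that attract monocytes, had means of 133 and 175 CPM in members against 1.18 and 1.71 in the rest. Cxcl13, which attracts B cells, had 463 CPM against 8.07, with the 4 libraries spread from 118 to 785. C3ar1, the receptor of the complement fragment C3a, was more even, from 226 to 278 CPM, against 5.34 in the rest. Igf1, a growth factor, and Trem2, a lipid-sensing receptor, had means of 291 and 233 CPM against 23.4 and 17.2. Their means were 49.3 and 81.0 CPM in alveolar macrophages and 6.31 and 46.4 in classical monocytes. Apoe, the lipid carrier, ranged from 5287 to 7549 CPM in members.

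The class was divided by Folr2 and MHC class II into a pair of kinds, whose separation is set by the limits used. Members with at least 2 Folr2 UMIs are called Folr2 cells (137: 37 and 56 with BPTES, 12 and 32 with DMSO). Members with no Folr2 UMI and at least 20 UMIs of H2-Aa, H2-Ab1 and H2-Eb1 are called MHC-II cells (396: 111 and 135 with BPTES, 57 and 93 with DMSO). The 3 class II genes took a median of 0.576%, 0.666%, 0.981% and 0.397% of the UMIs of Folr2 cells in BPTES 1, BPTES 2, DMSO 1 and DMSO 2. In MHC-II cells the medians were 2.68%, 1.94%, 2.66% and 2.58%, above the Folr2 cells in each library, as the limits favour. The separation was one of degree: between 71.9% and 85.7% of Folr2 cells also had at least 20 class II UMIs. Folr2 cells were deeper than MHC-II cells in each library, with medians from 23110.5 to 35406 UMIs against 21454 to 29635.

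**Figure D2:**
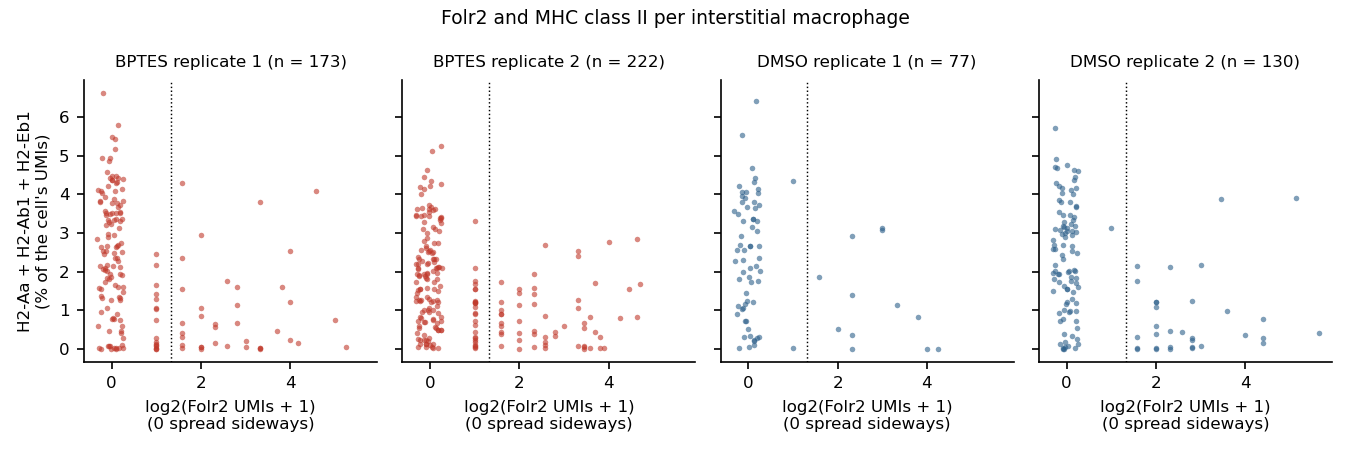
Each point is 1 interstitial macrophage, with its Folr2 UMIs (log2 of UMIs + 1, points at 0 spread sideways) on the horizontal axis and the share of its UMIs from H2-Aa, H2-Ab1 and H2-Eb1 on the vertical axis, by library. The dotted line marks the limit of 2 Folr2 UMIs; cells to the right of it sit mostly low on the class II axis, but cells high on both occur in every library.

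Folr2 cells carried higher levels of several scavenger receptor genes, of the chemokines Ccl8 and Ccl7 and of the complement genes C4b and Cfp, and MHC-II cells higher levels of antigen presentation, Itgax and Il1b transcripts. Across 9760 genes, with the library as a block, 231 (2.37%) differed at an adjusted p under 0.05 by edgeR's quasi-likelihood test, 106 higher in Folr2 cells (1.09%) and 125 higher in MHC-II cells (1.28%). The genes of the gate and of the member rule were left untested. In a list of 29 genes linked to the perivascular kind, 17 of 27 tested genes were higher in Folr2 cells and 0 higher in MHC-II cells, with a median log2 difference of 1.57 against -0.01 over all genes. A second list joined antigen presentation genes with other genes linked to MHC-II cells, such as Cx3cr1, Itgax, Cadm1, Mmp12, Il1b and Tnf. Of its 23 tested genes, 13 were higher in MHC-II cells and 0 in Folr2 cells, with a median of -0.98. The 13 include Itgax, Cadm1, Cd72, Mmp12, Il1b and Plbd1, which are not class II genes. Both lists were drawn up with this split in view and with earlier results of these data known. These counts are therefore a description and not a test.

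Among scavenger and endocytic receptors, Cd163, the receptor for haemoglobin and haptoglobin, read 153, 169, 202 and 457 CPM in the Folr2 cells of BPTES 1, BPTES 2, DMSO 1 and DMSO 2. It read 3.93, 6.12, 11.1 and 2.98 CPM in the MHC-II cells of the same libraries. The groups were far apart in every library, with a log2 difference of 5.29 ± 0.41 (SE, adjusted p = 0.00658), and 51.8% of Folr2 cells against 4.55% of MHC-II cells had a UMI. Lyve1, the hyaluronan receptor, read 111, 73.7, 316 and 276 CPM against 21.6, 10.4, 10.3 and 54.9 (log2 2.93 ± 0.38, adjusted p = 0.0156). Most Folr2 cells had no Lyve1 UMI: 31.4% had one, against 13.1% of MHC-II cells. In Folr2 cells 26.4% of the Lyve1 UMIs lay in 2 cells. Mrc1 was present in both kinds and differed less, at 917, 1007, 964 and 2200 CPM against 439, 416, 418 and 428 (log2 1.47). Stab1, a scavenger receptor of macrophages and sinusoids (log2 1.82), Fcna, a ficolin of the lectin pathway (4.18), and Clec10a, a galactose lectin (2.06), were also higher in Folr2 cells. Cd209f, a lectin receptor, had 735 UMIs in 32 of 137 Folr2 cells and 5 UMIs in 2 of 396 MHC-II cells. However, 42.3% of the 735 lay in 2 cells.

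Chemokines split in both directions. Ccl8 was the clearest, at 474, 390, 862 and 1150 CPM in Folr2 cells and 9.18, 11.5, 5.16 and 20.9 CPM in MHC-II cells (log2 5.79 ± 0.31, adjusted p = 0.000974). Ccl7, which also attracts monocytes, was higher in Folr2 cells as well (log2 2.77). Cxcl16, a membrane-bound chemokine (log2 -1.24), and the neutrophil attractants Cxcl1 (-1.11) and Cxcl2 (-0.64) were higher in MHC-II cells. Of 19 chemokines tested, 2 were called higher in Folr2 cells (beside 1.09% of all genes) and 4 in MHC-II cells (beside 1.28%). The fourth, Ccl22, a chemokine of mature dendritic cells, had 1720 UMIs in MHC-II cells, but 62.9% of them lay in 2 cells. Ccl2 (log2 1.54, adjusted p = 0.0635) and Cxcl13 (2.25, adjusted p = 0.0998) did not pass the threshold, and Cxcl13 spread from 179 to 2611 CPM over the Folr2 cells of the 4 libraries.

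Secreted factors differed too. F13a1, the coagulation factor XIII A chain, read 494, 535, 372 and 1065 CPM in Folr2 cells and 56.1, 83.6, 78.2 and 66.4 in MHC-II cells (log2 3.03 ± 0.28, adjusted p = 0.00761). Gas6, the ligand of Axl and Mertk (2.57), Pdgfc, a growth factor for mesenchymal cells (2.09), Mmp9, a gelatinase (3.68), and Timp2, a protease inhibitor (0.79), were higher in Folr2 cells. Mmp9 is also a granule gene of neutrophils. S100a9 and S100a8, 2 of 8 neutrophil markers, were called higher in Folr2 cells as well (beside 1.09% of all genes). The median log2 difference over the neutrophil list was 1.14. S100a9 read 896, 586, 2310.3 and 391.8 CPM in Folr2 cells and 409, 133, 647 and 110 in MHC-II cells (log2 1.73 ± 0.17, adjusted p = 0.00761), and 36.5% and 34.8% of the cells had a UMI. The part of neutrophil RNA in the Mmp9 difference was not tested. The complement genes C4b (2.66) and Cfp (1.29) were also higher there. Mmp12, the macrophage elastase, went the other way: Folr2 cells had 38.2, 108, 0 and 0 CPM, and MHC-II cells had 894, 637, 481 and 607 (log2 -4.45 ± 0.75, adjusted p = 0.0326). Mmp14 (-1.03) and Pdgfb (-1.23) were likewise higher in MHC-II cells. Igf1 (-0.30 ± 0.21) and Tgfb1 (-0.10 ± 0.16) did not pass the test.

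Among antigen presentation genes, Cd74, the invariant chain that guides class II molecules to the endosome, read 5022, 5324, 8097 and 5229 CPM in Folr2 cells. It read 17405, 13126, 16264 and 16107 CPM in MHC-II cells, above the Folr2 cells in every library (log2 -1.43 ± 0.13, adjusted p = 0.00761). H2-DMa (-1.08) and H2-DMb1 (-1.39), which load peptide onto class II, and Ciita, the class II transactivator (-0.96), followed the same direction. Because these genes are transcribed with the class II genes that set the gate, their difference is tied to it. Itgax, the gene of CD11c, was not part of the gate and read 21.1, 47.0, 3.10 and 5.02 CPM in Folr2 cells against 192, 204, 220 and 196 in MHC-II cells (log2 -3.28 ± 0.46, adjusted p = 0.0195). Il1b, the inflammatory cytokine, was also higher in MHC-II cells (log2 -1.49), as were Cadm1, an adhesion molecule (-2.56), and Cd72 (-2.30). Of 8 dendritic cell markers tested, 2 were called higher in MHC-II cells (beside 1.28% of all genes) and 1 in Folr2 cells (beside 1.09%). Their median was -0.67, and the part of dendritic cells in these differences was not tested. H2-M2, a non-classical class I gene, had 0 UMIs in 137 Folr2 cells and 1738 UMIs in 128 of 396 MHC-II cells, at least 244-fold higher against a floor of 3 UMIs over the group. Cx3cr1, the fractalkine receptor often used to mark this kind, did not pass the test (log2 0.03 ± 0.19), nor did Cd86 (-0.11 ± 0.17) or Tnf (-0.21 ± 0.30).

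The shared direction of class II genes can be set beside their promoters, which are known to carry an X2 box and a Y box read by the complex that Ciita joins. Of 6 genes looked up (H2-Aa, H2-Ab1, H2-Eb1, H2-DMa, H2-DMb1 and Ciita), 4 had a window in the RefSeq promoter table of GRCm38.p6, the assembly also called mm10. The bases from 130 to 31 before the annotated start are shown for 3 of them, in the direction of the gene, with the boxes in capitals. They lie at chr17:34287854-34287953 (minus strand), chr17:34305737-34305836 (plus strand) and chr17:34153061-34153160 (plus strand).
H2-Aa: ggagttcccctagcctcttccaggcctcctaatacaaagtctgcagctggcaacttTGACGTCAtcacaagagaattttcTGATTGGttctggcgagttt
H2-Eb1: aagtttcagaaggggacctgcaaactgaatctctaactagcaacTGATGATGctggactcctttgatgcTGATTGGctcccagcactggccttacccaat
H2-DMb1: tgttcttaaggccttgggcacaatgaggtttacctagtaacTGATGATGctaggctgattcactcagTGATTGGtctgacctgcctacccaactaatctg
Each holds the Y box TGATTGG, which is found on either strand in 4.45% of 32851 windows of this length. H2-Eb1 and H2-DMb1 hold the X2 box as TGATGATG (0.542% of windows), and H2-Aa as TGACGTCA (0.886%). These letters were not found in the windows of either annotated start of H2-DMa. A match describes the letters and not binding.

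Most core macrophage genes did not pass the test between the kinds. The list counts in this paragraph stand beside 1.09% of all genes called higher in Folr2 cells and 1.28% in MHC-II cells. Of 17 tested, Maf, a transcription factor (log2 1.57), Mrc1, Apoe (1.07) and Fcrls (1.87) were higher in Folr2 cells and Tgfbr1, a TGF-beta receptor (-1.61), in MHC-II cells, while Csf1r (0.44 ± 0.14) did not pass. Of 27 lipid and lysosome genes, Grn (0.85), Ctsl (1.13), Ctsb (0.60) and Apoe were higher in Folr2 cells and 0 in MHC-II cells. In the glutamine list, Glul, which makes glutamine, was higher in Folr2 cells at 251, 218, 285 and 244 CPM against 118, 143, 134 and 122 (log2 0.94 ± 0.13, adjusted p = 0.0193). Slc38a1, a glutamine transporter (-1.08), and Got1, an aspartate aminotransferase (-0.64), were higher in MHC-II cells, and the other 25 of 28 tested did not pass. The count of called genes was 23 without BPTES replicate 1, 94 without BPTES replicate 2, 83 without DMSO replicate 1 and 135 without DMSO replicate 2. Cd163, Ccl8, Ccl7, F13a1, Fcna, Cd74, H2-DMa, H2-DMb1, Cd72 and H2-M2 were called under each of 14 settings tried, these 4 included. Cxcl2 was called under 7 of the 14, Cxcl1 under 8, and Cxcl16, Ciita, Clec10a and Timp2 under 9.

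**Figure D3:**
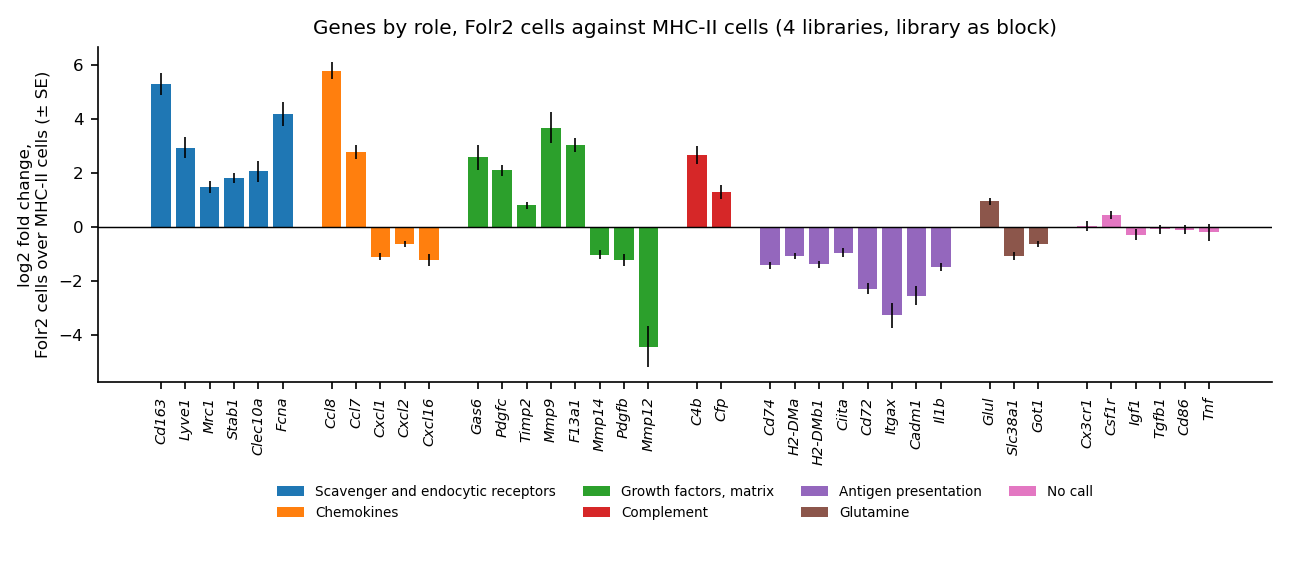
Log2 fold change of Folr2 cells over MHC-II cells (bars, with standard errors) for named genes grouped by role, from sums of UMIs in 4 libraries. Receptor, complement and Ccl8 bars point up to as much as 5.79, and the 6 genes at the right did not pass the test. Bars of the antigen presentation group, which also holds Cd72, Itgax, Cadm1 and Il1b, point down.

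Members made up a larger share of Ptprc-positive barcodes in the BPTES libraries. The shares were 3.10% (95% exact binomial interval 2.66 to 3.59) and 3.58% (3.13 to 4.08) with BPTES, and 1.38% (1.09 to 1.72) and 1.65% (1.38 to 1.95) with DMSO. The groups did not overlap, at 3.34% ± 0.340 against 1.51% ± 0.189 (SD, n = 2 each), a log2 ratio of 1.14. With 2 libraries against 2, the two-sided exact permutation test cannot go below p = 0.333, which is the value it gave. The intervals cover counting error only.

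The direction was the same per 100 classical monocytes, at 27.8 and 25.6 members with BPTES against 13.4 and 16.4 with DMSO. It was also the same, with a log2 ratio of 0.97, when barcodes were thinned to 5000 UMIs before the rule was applied. Barcodes under that depth were left out. This left 4644 and 5175 Ptprc-positive barcodes with BPTES and 4593 and 6388 with DMSO. Alveolar macrophages showed a like ratio, at 1.24% and 1.66% of Ptprc-positive barcodes with BPTES against 0.573% and 0.747% with DMSO (log2 1.13). Barcodes with at least 2 Cd79a UMIs, which mark B cells, were lower with BPTES, at 14.5% and 11.6% against 25.9% and 23.2%. They belong to the same denominator, and their part in the higher share of members was not tested. The lymphoid limit of the rule left out barcodes with at least 5 C1q UMIs in every library. These were 30 of 266 and 49 of 343 with BPTES, and 25 of 132 and 51 of 213 with DMSO. The part of this limit in the share was not tested either.

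For the makeup of the class, no difference between treatments could be shown with 2 libraries a group. Folr2 cells were 21.4% and 25.2% of members with BPTES and 15.6% and 24.6% with DMSO, so the groups overlapped (exact permutation p = 0.667, n = 2 each). With the limit set at 1 Folr2 UMI they were 30.6% and 36.5% with BPTES and 18.2% and 25.4% with DMSO, without overlap (log2 ratio 0.62, exact permutation p = 0.333, n = 2 each). After thinning to 5000 UMIs the values were 6.75% and 5.91% against 6.94% and 11.8%, which turns the direction, and 10, 2, 5 and 3 members under that depth were left out in the same order. MHC-II cells were 64.2% and 60.8% of members with BPTES and 74.0% and 71.5% with DMSO, without overlap (exact permutation p = 0.333, n = 2 each). Members with exactly 1 Folr2 UMI, which fall in neither kind, were 9.25% and 11.3% with BPTES against 2.60% and 0.769% with DMSO, and the BPTES members were the deeper ones. Members with a Ms4a7 UMI, a way into the rule, were 83.8% and 75.7% with BPTES and 93.5% and 93.8% with DMSO, without overlap. Members with at least 2 UMIs of the cycling genes Mki67 and Top2a were 16.8% and 16.2% with BPTES and 15.6% and 11.5% with DMSO.

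**Figure D4:**
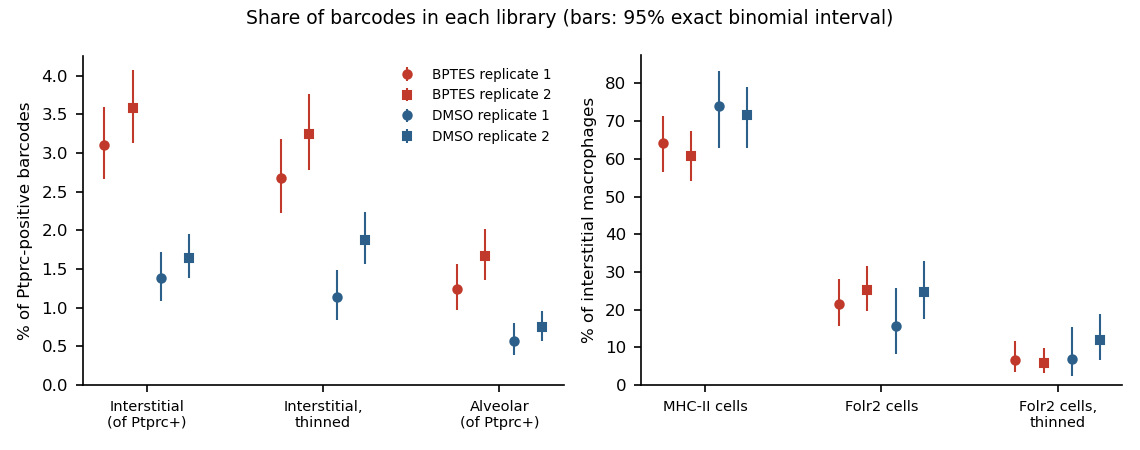
Share of barcodes in each of 4 libraries, with 95% exact binomial intervals, for macrophage classes among Ptprc-positive barcodes (left) and for the kinds of member (right). Interstitial macrophages sit at 3.10% and 3.58% with BPTES and 1.38% and 1.65% with DMSO, while the shares of members with at least 2 Folr2 UMIs overlap between the groups.

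No single gene passed the test between the members of BPTES and DMSO libraries. Values of Mmp19, Spp1 and most genes of the lipid and lysosome list lay higher with BPTES. Those of most interferon-induced genes and most genes of the list that holds antigen presentation genes lay lower. Of 12009 genes tested with edgeR's quasi-likelihood test, 0 (0%) had an adjusted p under 0.05, and the smallest was 0.141. At an unadjusted p under 0.05 there were 1604 (13.4%), of which 684 were higher with BPTES (5.7%) and 920 lower (7.66%). DESeq2 called 223 of 11776 (1.89%), 88 higher (0.747%) and 135 lower (1.15%). Groups did not overlap for 46.1% of genes, 23.6% higher and 22.5% lower. All gene lists used below were chosen with earlier results of these data known. A list's share set beside that of all genes is therefore a description and not a test. edgeR called 48 genes without DMSO replicate 1 and 5 without DMSO replicate 2.

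Markers of other cell types were also compared between treatments in the members. No gene of these lists had an adjusted p under 0.05 by edgeR. Of 10 non-classical monocyte genes, 3 were higher and 0 lower with BPTES at an unadjusted p under 0.05 (30%, beside 5.7% of all genes). Of the same 10, 7 were higher without overlap (beside 23.6% of all genes). The median log2 change was 0.59, but 0.35 without DMSO replicate 1 and 0.996 without DMSO replicate 2. The list made up 0.124% and 0.117% of member UMIs with BPTES and 0.0746% and 0.109% with DMSO, while Ace and Treml4 themselves overlapped between the groups. Of 10 T and NK cell genes, 6 passed the filter on low counts, which the libraries of 1 group alone can meet. Of these 6, 4 were lower (66.7%, beside 7.66% of all genes) and 0 higher, with a median of -2.74. The count is therefore no test of a difference. The list made up 0.00665% and 0.00653% of member UMIs with BPTES against 0.0175% and 0.0130% with DMSO. Without DMSO replicate 1 the median was -1.54. The T and NK median turned to 0.65 without DMSO replicate 2. Of 8 endothelial genes, all lay below 0 and 3 passed the unadjusted threshold (37.5%, beside 7.66% of all genes), with a median of -1.15, but the list stood at 0.0259% and 0.0255% with BPTES and at 0.0261% and 0.0852% with DMSO, so that DMSO replicate 2 stood apart. Without that library the endothelial median was 0.19, and without DMSO replicate 1 all 8 were lower.

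B and plasma cell markers and classical monocyte markers leaned lower in BPTES members. Dendritic cell genes lay on both sides of 0, and those that passed the unadjusted threshold were higher. Of 10 B and plasma cell genes, 6 passed the same filter, so their count is no test either. Of these 6, 3 were lower (50%, beside 7.66% of all genes) and 0 higher, with a median of -1.23. With the replicate number as a block 1 of the 6 was lower. The median was -0.76 without BPTES replicate 2 and -0.64 without DMSO replicate 2. The list made up 0.0173% and 0.0107% of member UMIs with BPTES against 0.0211% and 0.0557% with DMSO. Of 9 classical monocyte genes outside the rule, 4 were lower (44.4%) and 1 higher (11.1%, beside 5.7% of all genes), with a median of -0.43, and Ifi27l2a among the lower ones is also a gene of the interferon list. The whole classical monocyte list of 10 made up 0.115% and 0.0927% of member UMIs with BPTES and 0.153% and 0.125% with DMSO. Of 12 dendritic cell genes, 6 lay above 0 and 6 below, with a median of 0.35. At an unadjusted p under 0.05, 4 (Ccr7, Cacnb3, Fscn1 and Ccl22) were higher (33.3%, beside 5.7% of all genes) and 0 lower. The dendritic cell list made up 0.0366% and 0.0315% of member UMIs with BPTES and 0.0135% and 0.0250% with DMSO. Members with at least 10 UMIs of Ccr7, Ccl22 and Fscn1 numbered 5 and 4 with BPTES and 2 and 2 with DMSO. Their shares overlapped, at 2.89% and 1.80% against 2.60% and 1.54%. Without DMSO replicate 1, 4 dendritic cell genes were lower as well and the median was -0.09. Of 8 epithelial genes, 7 lay above 0 but 0 passed the unadjusted threshold, with a median of 0.77. The epithelial list made up 0.321% and 0.156% of member UMIs with BPTES and 0.249% and 0.0217% with DMSO, so that DMSO replicate 2 stood lowest. Without DMSO replicate 1, 5 of the 8 were higher, with a median of 3.75, and without DMSO replicate 2, 0 were, with a median of 0.02. Of 8 neutrophil genes 0 passed in either direction, at 0.146% and 0.101% against 0.252% and 0.0917%. Without DMSO replicate 1, 3 neutrophil genes were higher, and without DMSO replicate 2, 3 were lower. The part of these cells in the results that follow was not tested.

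Among the 6 genes higher with BPTES that had the smallest p, Mmp19 (ENSMUSG00000025355), a matrix metalloproteinase, read 121 and 98.2 CPM with BPTES and 14.7 and 10.4 with DMSO. Both BPTES libraries lay well above both DMSO libraries (log2 3.17 ± 0.22, adjusted p = 0.141). In BPTES replicate 1, however, 2 cells gave 57.2% of its UMIs, and after thinning 11.0% and 19.1% of BPTES members had a UMI against 8.33% and 3.15% of DMSO members. Spp1, the gene of osteopontin, read 193 and 261 CPM against 38.7 and 23.2 (log2 2.92 ± 0.28, adjusted p = 0.141). Lgals3, galectin-3, was broadly present, at 1408 and 1238 CPM against 729 and 737 (log2 0.85 ± 0.10, adjusted p = 0.181). Rnf217, a ubiquitin ligase gene (1.76), F10, coagulation factor X (1.26), and Rgcc, a cell cycle regulator (1.36), completed the set.

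Of the 6 lower genes with the smallest p, Clec1a, a C-type lectin, read 19.1 and 21.4 CPM with BPTES and 63.3 and 71.0 with DMSO (log2 -1.73 ± 0.14, adjusted p = 0.141). Phlda1 (-1.08), Plxdc2 (-1.02) and the large cytoskeletal linker genes Dst (-0.99) and Syne1 (-1.07) also lay lower in both BPTES libraries. The place of Marco, a scavenger receptor, in this set carries no test, since it is among the alveolar genes that the member rule limits, and its DMSO UMIs lay in 1 member of DMSO replicate 1 and 2 of DMSO replicate 2.

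Most lipid and lysosome genes lay higher with BPTES, 25 of 27 with a log2 change above 0. Of the 27, 14 were higher and 0 lower at an unadjusted p under 0.05 (51.9%, beside 5.7% of all genes). The median log2 change was 0.31 beside -0.01, and DESeq2 called 12 higher. The list was chosen with earlier results of these data known, so these shares are no test. Lpl, lipoprotein lipase, read 442 and 558 CPM with BPTES against 256 and 294 with DMSO (log2 0.86 ± 0.15). Abcg1, a cholesterol exporter, read 136 and 126 against 73.6 and 70.1 (0.87 ± 0.11). Lipa, the lysosomal acid lipase (0.66), Ctsd, a lysosomal protease (0.76), Psap, the saposin precursor (0.40), and Plin2, a lipid droplet coat protein (0.59), lay higher in both BPTES libraries. Apoe (0.02 ± 0.17) and Trem2 (0.28 ± 0.12) did not pass even the unadjusted threshold.

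Several of these genes are higher still in alveolar macrophages, where Lpl had a median of 2137 CPM and Spp1 528. Of 4 alveolar marker genes tested in members that the rule does not use, 2 were higher with BPTES (50%, beside 5.7% of all genes) and 0 lower at an unadjusted p under 0.05. Since the libraries of 1 group alone can meet the filter on low counts, this count is no test. The whole alveolar list made up 0.0296% and 0.0354% of member UMIs with BPTES and 0.0238% and 0.0205% with DMSO. Members with UMIs of exactly 2 of the 7 alveolar genes, just under the limit, numbered 7 and 6 with BPTES and 0 and 2 with DMSO. The part of alveolar genes and of these members in the result was not tested. Another limit left out members with over 0.2% of their UMIs from the markers of any 1 of 6 lineages. These were endothelial, fibroblast, epithelial (Epcam, Cldn18, Krt8 and Lamp3), neutrophil, T and NK, and B and plasma cells. Members rich in alveolar, monocyte or dendritic cell markers were not removed by it. Under this limit, 11 of the 27 lipid and lysosome genes were higher and 1 lower, with a median of 0.19.

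Interferon-induced genes lay lower with BPTES. Of 41 tested, 17 were lower and 1 higher at an unadjusted p under 0.05 (41.5% lower, beside 7.66% of all genes), with a median log2 change of -0.45, and DESeq2 called 4 lower. Ifit3, an antiviral RNA-binding protein, read 3.35 and 2.60 CPM with BPTES against 19.1 and 15.8 with DMSO (log2 -2.54 ± 0.32, adjusted p = 0.181). Isg15, a ubiquitin-like protein, read 20.5 and 21.0 against 56.7 and 39.3 (-1.19 ± 0.21), and Ifi27l2a read 178 and 131 against 381 and 232 (-0.98 ± 0.27). Of the 4 genes with a change above 0, Cxcl10 alone passed the unadjusted threshold, at 80.0 and 65.4 CPM against 49.1 and 51.5 (0.53 ± 0.15). Levels were low and partly carried by few cells: 10, 9, 9 and 18 members had an Ifit3 UMI in BPTES 1, BPTES 2, DMSO 1 and DMSO 2. Barcodes with collagen I UMIs and no Ptprc also had less Ifit3 with BPTES, with means of 18.9 against 29.4 CPM, and the part of free RNA in the members' values was not tested. Endothelial and T and NK cell markers had medians below 0 in the same comparison. Without DMSO replicate 2 those medians were 0.19 and 0.65. Their part in the interferon values was not tested. Without BPTES replicate 2, 6 of 42 were lower, and without members with over 0.2% of UMIs from another lineage, 10 of 40.

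The promoters of these genes are known for interferon-stimulated response elements. All 5 genes looked up (Ifit1, Ifit2, Ifit3, Isg15 and Oasl2) had windows in the same RefSeq table of GRCm38.p6. The bases from 130 to 31 before the start are shown for 3 of them, at chr19:34640759-34640858 (plus strand), chr19:34583399-34583498 (plus strand) and chr4:156200849-156200948 (minus strand). Capitals mark GAAA followed after any 2 bases by a further GAAA, searched on both strands, so that the other strand reads TTTC.
Ifit1: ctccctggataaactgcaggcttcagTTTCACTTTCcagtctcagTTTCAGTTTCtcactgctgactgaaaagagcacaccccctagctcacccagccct
Ifit3: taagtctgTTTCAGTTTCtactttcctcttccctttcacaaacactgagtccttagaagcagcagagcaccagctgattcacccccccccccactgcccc
Isg15: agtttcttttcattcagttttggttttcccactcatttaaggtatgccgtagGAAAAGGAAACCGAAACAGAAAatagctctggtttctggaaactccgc
The element stands 2 times in Ifit1, once in Ifit3 and 3 times with overlap in Isg15, and is found in 0.998% of all 32851 windows. These letters were not found in the windows of Ifit2 or Oasl2, whose levels were also lower with BPTES (-1.70 ± 0.38 and -0.84 ± 0.20).

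Genes of the list that joins antigen presentation with other genes linked to MHC-II cells lay modestly lower with BPTES. The antigen presentation genes of that list were not counted apart. Of 26 tested, 10 were lower (38.5%, beside 7.66% of all genes) and 1 higher (3.85%, beside 5.7%) at an unadjusted p under 0.05, with a median of -0.24, and DESeq2 called 3 lower and 1 higher. Cd74 read 11579 and 9734 CPM with BPTES against 13717 and 12851 with DMSO (log2 -0.32 ± 0.10, adjusted p = 0.319), a small difference without overlap. Cx3cr1 read 277 and 213 CPM against 418 and 346 (-0.64 ± 0.17), and Cadm1 read 194 and 119 against 389 and 289 (-1.11 ± 0.27). Tnf (-0.74 ± 0.15) and Cd72 (-0.70 ± 0.19) lay lower as well, while Ctss, the protease that trims the invariant chain, lay higher (0.29 ± 0.08). The count of lower genes was 4 without BPTES replicate 2 and 3 without members over 2 times the median depth. MHC-II cells were a smaller share of BPTES members than of DMSO members. Cd74 differed by a log2 of -0.03 within MHC-II cells and of -0.29 within Folr2 cells, where the groups overlapped, and the part of the makeup of the class in the lower Cd74 was not tested.

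Chemokines went both ways. Of 20 tested, 8 were lower (40%, beside 7.66% of all genes) and 4 higher (20%, beside 5.7%) at an unadjusted p under 0.05. The median was -0.47, and between -0.59 and -0.23 with each library left out in turn. Ccl3 and Ccl4, which attract lymphocytes and monocytes, read 241 and 201 CPM against 439 and 337 (log2 -0.81 ± 0.17), and 375 and 241 against 676 and 508 (-0.94 ± 0.25). Cxcl13 read 310 and 120 CPM against 650 and 774 (-1.73 ± 0.44), and Ccl12 (-1.18), Ccl2 (-0.999) and Ccl8 (-0.87) also lay lower. Ccl6 (0.94) and Ccl9 (0.64) lay higher. Ccl22 also lay higher, but up to 97.3% of its UMIs in a library came from 2 cells.

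The complement list holds C1qa, C1qb and C1qc, which belong to the rule and carry no test; C1qa read 2188 and 2017 CPM with BPTES and 2822 and 2901 with DMSO. Of the other 8 complement genes tested, 4 were lower (50%, beside 7.66% of all genes) and 1, Cfp, higher at an unadjusted p under 0.05, with a median of -0.48. C3 read 70.6 and 88.1 CPM against 216 and 132 (log2 -1.12 ± 0.26), but barcodes with collagen I and no Ptprc had a median of 1149.8 CPM of C3. Of 8 fibroblast markers, 5 were lower in BPTES members at an unadjusted p under 0.05 (62.5%, beside 7.66% of all genes), with a median of -0.86. Under the 0.2% limit on other lineages 1 of 8 was lower. The median was -0.54 without BPTES replicate 1 and -0.50 without DMSO replicate 1. The fibroblast list made up 0.0434% and 0.0686% of member UMIs with BPTES and 0.134% and 0.0821% with DMSO, and its part was not tested. Of the 8 complement genes outside the rule, 3 were lower with the replicate number as a block. Their median was -0.37 without BPTES replicate 1 and -0.58 without BPTES replicate 2.

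Perivascular genes had no steady direction. Of 29 tested, 8 were lower (27.6%, beside 7.66% of all genes) and 2 higher (6.9%, beside 5.7%) at an unadjusted p under 0.05, with a median of -0.27. Lyve1 read 42.0 and 30.6 CPM with BPTES against 64.4 and 107 with DMSO (log2 -1.26 ± 0.28), and Dab2, an endocytic adaptor, was lower too (-0.47), while Cd36, a fatty acid receptor (0.76), and Ltc4s, leukotriene C4 synthase (0.84), were higher. Folr2 itself, a gene of the rule, read 56.1 and 58.7 CPM against 50.2 and 84.1. Without DMSO replicate 1, 14 were lower, whereas without DMSO replicate 2, 3 were lower and 6 higher, and the median turned to 0.10. Without BPTES replicate 1, 3 were lower.

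Of the genes of glutamine metabolism, the pathway that BPTES acts on, some lay higher and some lower with BPTES. Glul read 159 and 165 CPM with BPTES and 155 and 160 with DMSO (log2 0.04 ± 0.10), and Slc1a5, a glutamine importer, read 40.1 and 35.7 against 40.9 and 32.9 (0.05 ± 0.17). Of 31 genes tested, 5 were higher (16.1%, beside 5.7% of all genes) and 3 lower (9.68%, beside 7.66%) at an unadjusted p under 0.05, so the lower share was near that of all genes and the higher share above it. The higher ones were Idh1 (0.83), Gfpt1 (0.51), Me2 (0.64), Ogdh (0.40) and Slc7a11, the cystine-glutamate exchanger (0.33), and the lower ones Slc7a5 (-0.73), Slc7a7 (-0.45) and Idh2 (-0.43). The higher count was 4 without BPTES replicate 1, 3 without BPTES replicate 2, 7 of 33 without DMSO replicate 1 and 3 without DMSO replicate 2, and the lower count was between 0 and 4 when each library was left out in turn.

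Proliferation genes lay higher with BPTES in sums of UMIs. The filter on low counts, which the libraries of 1 group alone can meet, kept 14 of the 15 listed genes. All 14 had a log2 change above 0, with a median of 0.80. At an unadjusted p under 0.05, 6 were higher (42.9%, beside 5.7% of all genes) and 0 lower. Because of the filter these counts are no test of a difference. Mki67, a marker of cycling cells, read 58.8 and 28.3 CPM against 13.6 and 15.5 (log2 1.55 ± 0.41), and Top2a, a topoisomerase of dividing cells, read 33.4 and 19.9 against 6.00 and 5.18 (2.26 ± 0.36). Without members over 2 times the median depth, 0 of 10 were higher, and without BPTES replicate 1, 3 of 13.

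Heat shock genes and early response genes, counted as 1 list, went both ways. Hspa1a (0.85), Hspa1b (1.69), Hsph1 (1.45), Hspa8 (0.44), Klf2 (0.78) and Klf4 (0.45) lay higher with BPTES. Jun (-0.59), Egr1 (-0.75), Btg2 (-0.51), Junb (-0.35), Fos (-0.31) and Zfp36 (-0.29) lay lower. This makes 6 of 22 in each direction at an unadjusted p under 0.05 (27.3%, beside 5.7% of all genes higher and 7.66% lower). Without members over 2 times the median UMIs, 3 were higher and 5 lower. The 4 heat shock genes named lay higher, the early response genes went both ways, and no test of a difference between the kinds was run. Genes of both kinds are also known to respond to tissue digestion, whose part was not tested. Of 18 genes linked to senescence and arrest, 1 was higher and 1 lower (5.56% each), near the shares of all genes. Cdkn1a, the gene of p21, read 369 and 445 CPM against 463 and 394 (-0.07 ± 0.14), and Cdkn2a, the gene of p16, stood between 1.94 and 3.82 CPM (-0.61 ± 0.54).

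**Figure D5:**
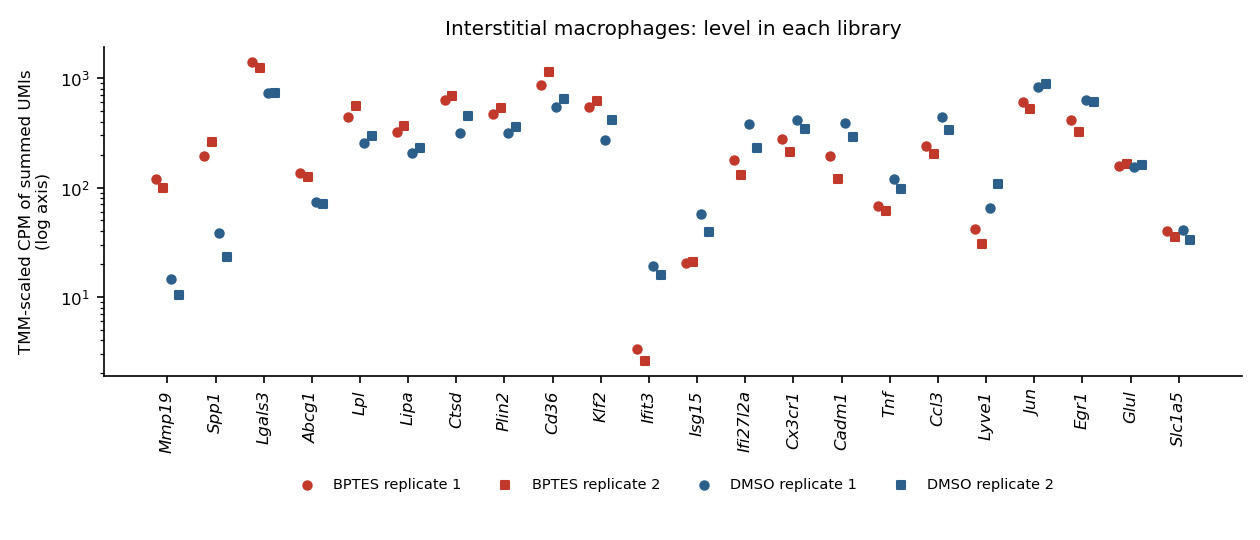
TMM-scaled CPM (log axis) of 22 genes in the interstitial macrophages of each library, with BPTES in red and DMSO in blue. Mmp19 sits at 121 and 98.2 against 14.7 and 10.4 and Ifit3 at 3.35 and 2.60 against 19.1 and 15.8, while Glul and Slc1a5 overlap.

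Whether BPTES acted differently on interstitial macrophages than on other cells was tested as an interaction. Between Folr2 and MHC-II cells, 0 of 10751 genes (0%) differed in response at an adjusted p under 0.05 by edgeR, and 4.95% did at an unadjusted p under 0.05. Spp1 was among those with the smallest p, at 499 and 551 CPM with BPTES against 18.4 and 2.49 with DMSO in Folr2 cells, and 46.3 and 112 against 46.3 and 29.7 in MHC-II cells (difference of log2 changes 5.08 ± 0.71, adjusted p = 0.940). Against alveolar macrophages, 0 of 12095 (0%) differed, with 6.15% at an unadjusted p under 0.05. There Spp1 read 482 and 578 CPM with BPTES and 812 and 390 with DMSO in alveolar macrophages (difference of log2 changes 2.996 ± 0.19 from the joint fit of both classes with the library as a block, adjusted p = 0.0564).

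Against classical monocytes, 0 of 14495 genes (0%) differed in response by edgeR, with 14.6% at an unadjusted p under 0.05. Ifit3 read 31.3 and 22.4 CPM with BPTES and 8.64 and 15.6 with DMSO in monocytes, the opposite direction to members (difference -3.63 ± 0.41, adjusted p = 0.0772). Top2a differed likewise, at 3.24 and 3.51 CPM against 10.9 and 12.4 in monocytes (difference 4.05 ± 0.38, adjusted p = 0.0772). Leaving out BPTES replicate 1, BPTES replicate 2, DMSO replicate 1 or DMSO replicate 2 gave 27, 23, 120 and 333 calls against monocytes, and leaving out BPTES replicate 1 gave 56 against alveolar macrophages. Between Folr2 and MHC-II cells, leaving out BPTES replicate 1 gave 2 calls and DMSO replicate 1 gave 1.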

How the data were processed

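The authors deposited 1 filtered matrix of UMI counts per library, with raw counts per gene and barcode and no normalisation. Cell Ranger 8.0.1 and the mm10 build are named per the submitters' processing notes, and Chromium GEM-X 3' chemistry per the labels' protocols. Filters kept barcodes of 500 genes or more and 1000 UMIs or more whose mitochondrial share did not pass 10%. Cells are not replicates: UMI counts were summed per library and gate. The test was that of edgeR (version 4.0.16 on R 4.3.3, with TMM, filterByExpr, quasi-likelihood, Benjamini-Hochberg, two-sided), and DESeq2 1.42.0 served as an alternative. Comparisons between classes had the library as a block. Per-gene values are TMM-scaled CPM, those by class plain CPM, and errors approximate standard errors. The fitting code was checked on simulated data.

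Alveolar macrophages (263 barcodes) had at least 3 of 7 alveolar genes, and classical monocytes (2855) had UMIs of Csf1r, Ly6c2 and Ccr2 and under 5 of C1q. Collagen I barcodes had at least 5 UMIs of Col1a1 and Col1a2 and none of Ptprc or Cdh5. The members and all gene lists were chosen with earlier results of these data known. Genes named for BPTES are the 6 with the smallest p per direction among those with non-overlapping groups and at least 10 CPM, plus a set list. For the split they are up to 12 called per direction with the largest fold and a mean of at least 50 CPM, plus called list genes. Other genes of the lists were named after their values were seen. Sums of between 1872055 and 7792438 UMIs per library set the precision. Some results on single genes are not reported here.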

Additional observations from a re-analysis of the deposited data

How the results depend on the processing

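The higher share of members with BPTES (log2 ratio 1.14) kept its direction with each library left out (1.02 to 1.28) and under every other setting but one: without members with 3 or more UMIs of another lineage's markers, which left 3, 1, 3 and 4 members, it was -0.58. The Folr2 share (0.21) ranged from -0.0788, without DMSO replicate 1, to 0.58 with each library left out, was 0.62 with a limit of 1 Folr2 UMI and -0.57 after thinning. Counts of genes called between BPTES and DMSO (0) were 996 with no filter on low counts, 223 with DESeq2, 4 without members over 2 times the median UMIs, 14 without members with 3 or more other-lineage UMIs (183 genes tested), 5 without members over 0.2% other-lineage UMIs (a setting chosen after seeing the data: Mmp19, Rnf217, Ccl22, Prg4, of which 4, 3, 0 and 3 of all members had at least 3 UMIs, and Marco, which the rule uses and which carries no test), and 0 to 48 with each library left out. Between Folr2 and MHC-II cells (231) they were 622 with no filter, 411 with DESeq2, 416 without the deepest members, 381 with at least 4 Folr2 UMIs and 23 to 135 with each library left out. Differences in response between the 2 kinds (0) were 39 with no filter, 16 under the 0.2% limit and 0 to 2 with each library left out. Against alveolar macrophages they were 8 with no filter and 0 to 56, and against monocytes 396 with no filter, 58 under the 0.2% limit and 23 to 333. Replicate numbers are shared by the groups but nothing in the labels ties them to a shared animal or day, and with 2 pairs the numbers do not pair the libraries. The difference between replicates 1 and 2 correlated at 0.307 between treatments over 12009 genes and at 0.0956 over the 3510 with a mean of at least 50 CPM. With the replicate number as a block 0 genes were called, and without the library block in the split 246. Of 504 values for 51 named genes of the split, 18 lost the call, and of 202 with a library left out 86 did; none turned direction. The filter on 3 other-lineage UMIs left too few members for the split and the differences in response and was not run for them. The causes of these shifts were not tested.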
